A study of Mus musculus with 2 samples.

Results

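The genes of the Myc family and their shared partners were followed from naive to primed pluripotency and back. They were taken by symbol as the rows Myc, Mycn, Mycl, Max and Mga of the raw count table, which made 5 of its 33963 genes. The rule used no measured value, but earlier results of these data were known when the genes were chosen. For each gene the reads were summed over the cells of a population and scaled to a total of 1000000 reads over the genes of that population (CPM). The share of cells with at least 1 read of the gene was also taken.

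The 5 cell populations came from mouse lines of strain 129/Ola, and each was given its own oligonucleotide tag before all were pooled into 1 cDNA library for single-cell RNA-seq. Naive mouse embryonic stem cells (naive mESCs) carried a Rex1-GFP reporter and grew in 2iL, a medium with the inhibitors PD0325901 and CHIR99021 and leukemia inhibitory factor (LIF). Primed mouse epiblast stem cells (primed mEpiSCs) were of the single line Oct4GIP, which carries an Oct4-driven GFP and puromycin cassette, and were kept in FGF2 and Activin A. The same line was treated in Basal medium, which holds serum and serum replacement, with AICAR, an activator of AMP-activated protein kinase, together with LIF. It was sampled on day 8 (d8) and day 16 (d16), and reverted d16 cells were expanded in 2iL for 10 passages (d16+10p). The line was put on mouse embryonic fibroblast feeders before reversion. A tag marks the culture a cell was assigned to and not a cell type. The d16 cells were split by their Dppa5a level, a gene of naive cells, into Dppa5a-high cells (1000 CPM or more) and Dppa5a-low cells, as the study question concerns the few d16 cells that regain the naive state.

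MYC, MYCN and MYCL are closely related transcription factors that bind DNA as pairs with MAX, mostly at the E-box CACGTG, and raise genes of ribosome making, nucleotide synthesis and cell growth. MAX also pairs with repressors, among them the MXD proteins, MNT and MGA. MGA and MAX belong to the Polycomb complex PRC1.6, which holds genes of germ cells and meiosis silent in embryonic stem cells. In embryonic stem cells MYC and MYCN are known to back each other up in growth and self-renewal.

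Of the 17720 cells, 801 were naive, 1826 primed, 9627 d8, 1278 d16 Dppa5a-high, 3037 d16 Dppa5a-low and 1151 d16+10p, with median depths between 8691 reads (d16 Dppa5a-low) and 21551 reads (d16+10p) per cell. Each population was 1 sample, so no replicate check or test exists for any difference. The 95% intervals, exact Poisson for levels and exact (Clopper-Pearson) binomial for shares, cover counting error only. Those of levels and ratios take each read as independent, although no collapsing of reads to molecules is described. At d8, cells with a Myc read held 2.90 such reads on average and up to 36. These intervals are therefore likely too narrow, and intervals that lie apart only order the read counts. The cells formed 17 clusters, built without the members and the network genes listed further on, and of these clusters 5, 7, 11 and 12 were Pou5f1-high. The cluster in which a population was most enriched among these is called its home cluster. Home clusters held 507 naive cells (cluster 11), 416 primed cells (12), 1171 of all 4315 d16 cells (5) and 880 d16+10p cells (7). All 7 naive markers had reads in each population, and their summed level was 3449 CPM in naive, 4878 CPM in d16 Dppa5a-high and 3695 CPM in d16+10p cells against 183 to 289 CPM in the others. Dppa5a, which set the d16 split, is among them and gave 3726 CPM of the d16 Dppa5a-high sum, so that sum is partly fixed by the split. Each of the other naive markers was also higher in these populations than in the others. Zfp42 had 564 CPM in naive, 488 CPM in d16 Dppa5a-high and 406 CPM in d16+10p cells, against 24.1 to 34.0 CPM. Most primed-tagged cells, 1356, lay outside the Pou5f1-high clusters, with 414 in cluster 2 (68.9% d8 cells) and 238 in cluster 6 (67.2% d16 cells). Outside the Pou5f1-high clusters their 8 fibroblast markers summed to 2661 CPM and their 10 macrophage markers to 1094 CPM. The primed home cluster had 522 and 272 CPM. The 237 naive-tagged cells outside Pou5f1-high clusters had 3541 CPM of macrophage markers, against 283 CPM in the naive home cluster. Levels are therefore given for whole populations and for home clusters side by side. Where no home cluster is named, naive and primed mean all cells of that tag. The part of the other cell types in a difference between whole populations was not tested.

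On the mouse genome (GRCm38), Myc lies on the plus strand of chromosome 15, 61985391 to 61990374, and Mycn on the minus strand of chromosome 12, 12936093 to 12941914. Mycl is at chromosome 4, 122995652 to 123002485 (plus strand), and Mga at chromosome 2, 119897228 to 119969581 (plus strand). Max is at chromosome 12, 76937269 to 76962201 (minus strand), where it overlaps the unconfirmed transcript Gm47218 on the same strand, so its reads may include reads of that transcript. Promoter windows of 300 bases (250 before to 50 after the start, RefSeq, GRCm38.p6) were at hand for 4 members, not for Myc. The E-box, which reads the same on both strands, was found in the window of Max and not in those of Mycn, Mycl and Mga. Of 18100 genes of the count table with a window, 9.46% held it. It was present in 10 of 15 windows of germ cell genes listed as held silent by MGA and MAX, and in 11 of 34 windows of listed MYC target genes. The sites below show what a MAX pair is known to read, with the E-box in capitals and 12 flanking bases on each side, written along the strand of the gene. They are those of Max itself, of the meiotic genes Hormad1, Sycp3, Stk31 and Ddx4, and of the growth genes Cdk4 and Nme1.
Max: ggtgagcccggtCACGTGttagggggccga
Hormad1: caaagggtgcgcCACGTGccagtgacagtt
Sycp3: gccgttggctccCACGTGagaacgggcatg
Stk31: aggccggccaccCACGTGaccagggctgcg
Ddx4: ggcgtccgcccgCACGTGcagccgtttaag
Cdk4: aagtcaaggggtCACGTGggatagcaacag
Nme1: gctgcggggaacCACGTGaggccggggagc
The Max site lies at chr12:76962234-76962263 (minus strand), at the RefSeq start used for the window, which is upstream of the bounds of Max given above. The sites of Hormad1 (chr3:95559608-95559637, plus), Sycp3 (chr10:88459511-88459540, plus) and Stk31 (chr6:49395472-49395501, plus) begin shortly before an annotated start, as does that of Ddx4 (chr13:112652322-112652351, minus). Cdk4 (chr10:127063405-127063434, plus) has 4 such sites in its window, and the Nme1 site shown is at chr11:93968273-93968302 (minus). Beyond the E-box the flanking bases differ from gene to gene. A match is a description of the letters in the window and was not tied to binding here.

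Mycn, the family member named for neuroblastoma and active in early embryos, was the member that differed most between the pluripotent populations. Its level was 44.4 CPM (95% interval 41.3 to 47.7) in naive-tagged and 32 CPM (29.9 to 34.2) in primed-tagged cells. It was 29.5 CPM (28.7 to 30.3) at d8 and 21.8 CPM (20.3 to 23.4) in d16 Dppa5a-low cells. In d16 Dppa5a-high cells it was 103 CPM (98.7 to 107), and in d16+10p cells 63.8 CPM (60.8 to 66.9). Mycn was thus highest in the cells that had just regained the naive genes, and after expansion it stood between those cells and naive mESCs. Of neighbours in this order, only primed and d8 had intervals that overlapped. In the home clusters the level was 47.1 CPM in naive, 25.2 CPM in primed, 109 CPM in d16 and 66.0 CPM in d16+10p cells, in the same order.

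Myc, the founding member and a driver of growth in many cell types, had nearly the opposite order. Its level was 60.2 CPM (59.1 to 61.3) at d8, 53.6 CPM (51.2 to 56.1) in d16 Dppa5a-low and 45.2 CPM (42.7 to 47.8) in primed cells. It was 25.1 CPM (22.8 to 27.6) in naive, 24.0 CPM (22 to 26.2) in d16 Dppa5a-high and 20.2 CPM (18.6 to 22) in d16+10p cells. The 3 populations with high naive markers were the 3 lowest, and the intervals of neighbours among them overlapped. In home clusters Myc was 35.5 CPM in primed cells against 18.9 CPM in naive, 20.4 CPM in d16 and 16.9 CPM in d16+10p cells. Naive-tagged cells outside the Pou5f1-high clusters held 49.5 CPM (42.1 to 57.8) and d16+10p-tagged ones 45.4 CPM (38.2 to 53.6), well above the home cluster of the same tag.

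Mycl, first found in lung cancer, was the member whose highest population level was in primed-tagged cells. It had 13.3 CPM (12 to 14.8) in primed-tagged cells and 9.26 CPM (8.14 to 10.5) in d16+10p cells. It had 7.41 CPM (6.29 to 8.68) in d16 Dppa5a-high cells, 5.52 CPM (5.19 to 5.88) at d8, 5.45 CPM (4.40 to 6.67) in naive and 5.16 CPM (4.44 to 5.97) in d16 Dppa5a-low cells. The last 3 could not be ordered, since their intervals overlapped. Within the primed tag, the home cluster held 19.3 CPM (16.7 to 22.3) and the cells outside Pou5f1-high clusters 10.1 CPM (8.64 to 11.7). Its summed reads were few, from 94 in naive to 994 at d8.

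Max, the obligate partner, was nearly level. It ranged from 37.9 CPM (35.9 to 40.0) in d16 Dppa5a-low to 51.0 CPM (48.3 to 53.8) in d16+10p cells, and of the 5 pairs of neighbours in its order only d16+10p and d8 had separate intervals. Mga, the large MAX partner that carries a second DNA-binding domain, was 129 CPM (124 to 133) in d16+10p, 118 CPM (113 to 123) in d16 Dppa5a-high and 108 CPM (103 to 113) in naive cells. It was 93.6 CPM (90.0 to 97.3) in primed, 90.7 CPM (87.6 to 93.9) in d16 Dppa5a-low and 90.6 CPM (89.2 to 92.0) at d8. The 3 populations with high naive markers were above the other 3, with a span much narrower than that of Mycn.

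**Figure D1:**
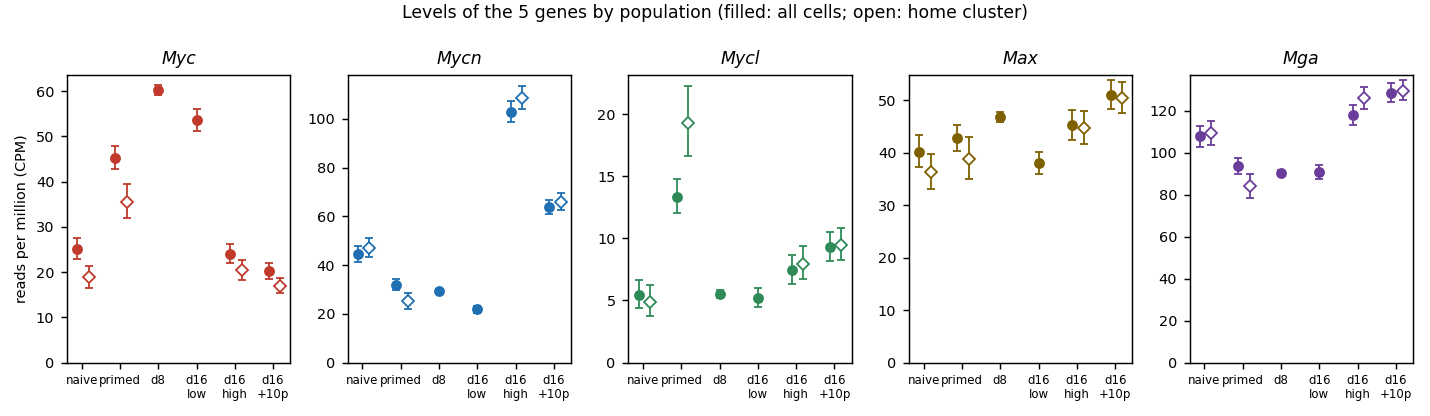
Summed level in CPM (linear axis from 0) of the 5 genes in the 6 groups of cells, with 95% Poisson intervals of counting error; filled circles are all cells of a tag (d16 split at 1000 CPM of Dppa5a into low and high), open diamonds the cells in the home cluster. Mycn peaks in d16 high cells at 103 CPM, Myc is at 20.2 to 25.1 CPM in naive, d16 high and d16+10p cells and at 45.2 to 60.2 CPM elsewhere, and Mycl peaks in primed cells.

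The balance of both main members was read within each population as Mycn reads per Myc read, which does not depend on the total. It was 1.77 (1.57 to 1.99) in naive and 0.708 (0.649 to 0.772) in primed cells, 0.490 (0.474 to 0.506) at d8 and 0.406 (0.373 to 0.442) in d16 Dppa5a-low cells. It was 4.29 (3.89 to 4.74) in d16 Dppa5a-high and 3.15 (2.86 to 3.48) in d16+10p cells. Among these populations, the ratio was above 1 in those with high naive markers and below 1 in the rest. Some clusters of other cells also had ratios above 1, as given further on. In the home clusters it was 2.5 (2.15 to 2.92) for naive mESCs and 0.711 (0.601 to 0.839) for primed mEpiSCs. The d16 home cluster had 5.33 (4.76 to 5.97), and that of d16+10p had 3.90 (3.48 to 4.38). The reverted cells of both stages therefore had a higher ratio than naive mESCs, and the intervals were apart. The naive mESCs are a cell line of their own, while the primed and reverted cells are all Oct4GIP. Cell line and state thus cannot be told apart in any comparison with naive mESCs. Primed cells, AICAR-treated cells and cells in 2iL also differed in medium. Medium and state cannot be told apart in comparisons across these media.

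Ratios between populations were taken as log2 of CPM with a pseudocount of 1 CPM, and a gene with at least 5 CPM in either population was called when it differed at least 2-fold. The intervals are those of the plain ratio without the pseudocount, which lies farther from 0 for genes of low level such as Mycl. All 5 members passed this filter in each comparison. Between primed and naive cells, 1 member was called, against 9.14% of 12927 genes: Mycl was higher in primed cells by a log2 ratio of 1.15 (interval 0.96 to 1.63). The call is lost with the mean over cells of CPM (0.69) and with a pseudocount of 10 CPM (0.60). Myc had a ratio of 0.82 and Mycn of -0.46. Between the home clusters the ratio of Mycl was 1.79, that of Myc 0.88 and that of Mycn -0.88, so the same gene was past 2-fold (13.9% of genes were).

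From primed to d8, when Pou5f1 is low in the culture (56.8 CPM against 203 CPM), Mycl was the only member called and was lower, with a log2 ratio of -1.14 (-1.45 to -1.10). There 6.71% of genes were called. This call is also lost with the mean over cells (-0.85) and a pseudocount of 10 CPM (-0.59). Myc was 0.41 higher and Mycn was within 0.12 of its primed level on the log2 scale. Mycn had 29.5 CPM at d8 against 25.2 CPM in the primed home cluster, so its direction turned there. Myc had 60.2 against 35.5 CPM. Over all settings run, the log2 ratio went from -0.12 to 0.22 for Mycn and from 0.32 to 0.82 for Myc.

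The d16 Dppa5a-high cells were set against the primed-tagged cells, the culture of the line they derive from. Most of these, 1356 of 1826, lay outside the Pou5f1-high clusters. Mycn was called higher, with a log2 ratio of 1.66 (1.57 to 1.8), where 12.2% of genes were called. Myc was lower by -0.89 (-1.06 to -0.76) and Mycl by -0.77 (-1.13 to -0.57), both within 2-fold. Between the home clusters of d16 and primed cells Mycn had a ratio of 2.06 (1.92 to 2.3) and Mycl of -1.18 (-1.61 to -0.96), and both were called, against 14.6% of genes. Against naive mESCs the same d16 cells had Mycn higher by 1.20 (1.09 to 1.33), the 1 member called where 4.29% of genes were, and Myc within counting error (-0.06, interval -0.25 to 0.13). Both comparisons share the d16 cells and are not independent.

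Within the d16 culture, Dppa5a-high cells had Mycn higher by 2.19 (2.12 to 2.36) and Myc lower by -1.13 (-1.30 to -1.02) than Dppa5a-low cells. These 2 calls stand against 28.4% of genes called in that comparison, and that of Myc is lost with a pseudocount of 10 CPM (-0.90). In the Dppa5a-low cells the fibroblast markers summed to 3710 CPM, against 618 CPM in the Dppa5a-high cells. The macrophage markers summed to 987 against 299 CPM, and their part was not tested.

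Expansion in 2iL for 10 passages left no member past 2-fold against d16 Dppa5a-high cells, where 2.68% of genes were called. Mycn was lower by -0.68 (-0.78 to -0.60) and Myc by -0.24 (-0.43 to -0.07). Against primed cells, d16+10p cells had 1 member called, Myc, lower by -1.12 (-1.31 to -1.01), where 10.5% of genes were called. That call is lost with the mean over cells (-0.90), a pseudocount of 10 CPM (-0.87) and only Pou5f1-high clusters (-0.95). Mycn was just under the limit at 0.97 (0.88 to 1.11) and past it between home clusters at 1.36, where Myc was also past it at -1.02 and 12.4% of genes were called. Against naive mESCs no member was called, and 1.76% of genes were. The ratios were 0.67 (0.42 to 1.12) for Mycl, 0.51 (0.40 to 0.65) for Mycn, 0.34 (0.21 to 0.48) for Max and 0.25 (0.17 to 0.34) for Mga, all with intervals above 0, and -0.30 (-0.50 to -0.12) for Myc. Between the home clusters Mycn was again higher, at 0.48 (0.35 to 0.63), but the ratio of Myc was -0.15 with an interval that held 0 (-0.39 to 0.08).

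The d16 cells were also binned by their Dppa5a level, to see the members on both sides of the split. The 1574 cells without a Dppa5a read had 16.7 CPM of Mycn, and the 1352 cells with under 500 CPM of Dppa5a had 23.4 CPM. Just below the split, 111 cells from 500 to under 1000 CPM had 49.4 CPM (38.4 to 62.7), and just above it 184 cells from 1000 to under 2000 CPM had 70.9 CPM (61.6 to 81.1). Cells from 2000 to under 4000 CPM had 103 CPM and cells at 4000 CPM or more 114 CPM (107 to 121). Mycn was therefore higher in each bin with more Dppa5a, but the intervals on both sides of the split overlapped slightly, as did those of the 2 highest bins. Myc was 51.5 and 56.8 CPM in the lowest bins and then 27.6, 27.5, 25.6 and 21.0 CPM, with its step at 500 CPM of Dppa5a. Mycl had 4.89 to 8.00 CPM across all bins. The median depth was 7085 reads in cells without a Dppa5a read and 14312 reads in the highest bin, and its part was not tested.

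**Figure D2:**
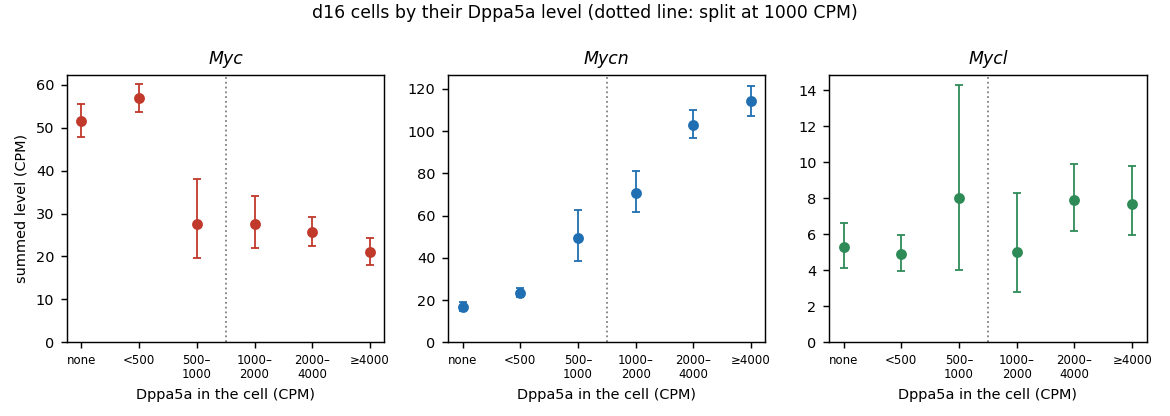
Summed level in CPM (linear axis from 0) of Myc, Mycn and Mycl in d16 cells binned by their own Dppa5a CPM, with 95% Poisson intervals; the dotted line is the split at 1000 CPM. Mycn goes from 16.7 CPM in cells without a Dppa5a read to 114 CPM in the highest bin, while Myc has a step between the second and the third bin.

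For shares, all cells were first brought down at random to 5000 reads apiece, which left out the shallower ones (68 naive, 271 primed, 755 d8, 40 d16 Dppa5a-high, 564 d16 Dppa5a-low and 69 d16+10p cells). The macrophage-like cluster 8, which held all 10 macrophage markers at least 4-fold above the other cells, gave the background, with a median depth of 17428 reads. Of its cells 4.21% had a Mycn read, 0.481% a Mycl read and 7.69% a Myc read. Macrophages can transcribe Myc, so that share is no clean background for Myc. Among naive mESCs 16.6% (14.0 to 19.5) had a Mycn read, and the share was 12.7% (11.1 to 14.5) in primed, 11.2% (10.5 to 11.8) in d8 and 7.72% (6.70 to 8.85) in d16 Dppa5a-low cells. It was seen in 30.1% (27.6 to 32.8) of d16 Dppa5a-high and 23.8% (21.3 to 26.5) of d16+10p cells. All 6 shares were above the macrophage-like cluster, and their order was that of the CPM. Before thinning, the share with a Mycn read was 50.6% for d16+10p, 50.4% for d16 Dppa5a-high, 39.6% for naive, 23.2% for primed, 22.8% for d8 and 13.1% for d16 Dppa5a-low cells.

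Myc was seen at the same depth in 19.4% (18.6 to 20.2) of d8, 16.9% (15.5 to 18.5) of d16 Dppa5a-low, 16.7% (14.8 to 18.6) of primed and 10.5% (8.38 to 13.0) of naive cells. The shares of 9.21% (7.66 to 11) in d16 Dppa5a-high and 8.23% (6.66 to 10.0) in d16+10p cells had intervals that held the macrophage-like value, as did those of the naive (8.35%, 6.08 to 11.1), d16 (8.05%, 6.53 to 9.80) and d16+10p (6.77%, 5.20 to 8.65) home clusters. At this depth these shares could not be told from that of cluster 8, which may itself hold transcribed Myc. The unthinned shares of Myc were 23.6% to 38.8% over the 6 groups. Mycl was seen in 5.02% (3.98 to 6.22) of primed, 4.34% (3.21 to 5.73) of d16+10p, 2.99% (2.11 to 4.1) of d16 Dppa5a-high, 2.87% (2.54 to 3.24) of d8, 2.18% (1.25 to 3.52) of naive and 2.06% (1.54 to 2.70) of d16 Dppa5a-low cells. Unthinned, they ranged from 3.72% to 12.6%.

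**Figure D3:**
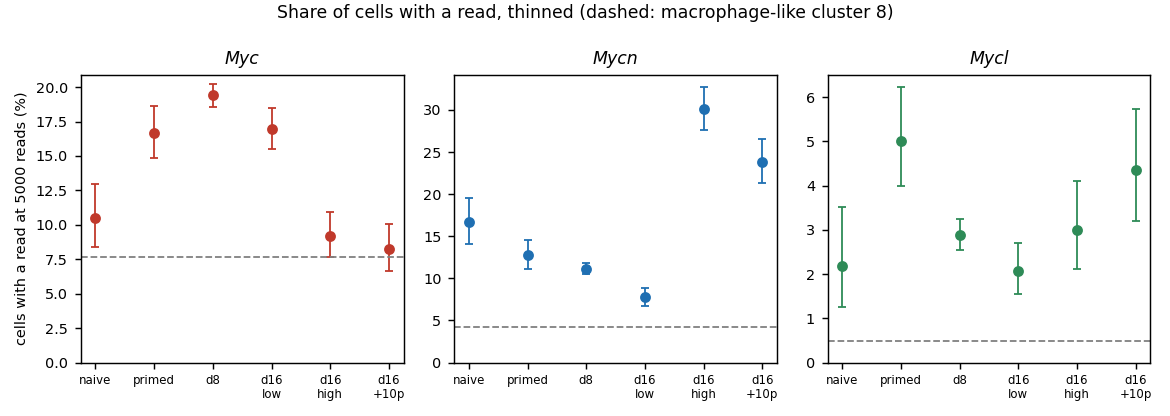
Percent of cells with at least 1 read of Myc, Mycn or Mycl after thinning each cell to 5000 reads (linear axis from 0), by population, with exact 95% binomial intervals; the dashed line is the share in the macrophage-like cluster 8. Mycn reaches 30.1% in d16 high cells against 4.21% in cluster 8, and Myc in d16 high and d16+10p cells lies next to its dashed line at 7.69%.

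The share of thinned cells with reads of both Myc and Mycn was set beside the product of both shares. In d16 Dppa5a-high cells 2.58% held both against a product of 2.77%, in d8 cells 2.16% against 2.16%, and in naive cells 2.05% against 1.75%. It was 1.74% against 2.12% in primed, 1.48% against 1.96% in d16+10p and 0.970% against 1.31% in d16 Dppa5a-low cells. The joint share was above the product in naive cells and at or below it in the rest, on 15 to 192 joint cells a group. At least 1 of Myc, Mycn and Mycl was read in 38.9% of d16 Dppa5a-high, 33.6% of d16+10p, 31.3% of primed, 30.2% of d8, 26.7% of naive and 25.3% of d16 Dppa5a-low cells. This share spanned a narrower range than that of Mycn alone.

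Over the 17 clusters, each of at least 50 cells, the members differed in where they were highest. Myc was highest in the epithelial-like cluster 0 (keratins 8 and 18, 87.8% d8 cells), with 90.2 CPM (87.5 to 92.9), followed by cluster 4 (Acta2 and Actc1) with 68.5 CPM (65.8 to 71.2). It was 19.1 to 19.9 CPM in the naive-like clusters 5, 7 and 11. The small two-cell-like cluster 16 had 17.4 CPM (9.53 to 29.3), and cluster 8, the macrophage-like one, had 22.5 CPM. Mycn was equally high in the d16 home cluster 5, with 105 CPM (101 to 110), and in cluster 9, a cluster led by Lhx1, Dkk1 and Cer1 in which 82.0% of cells were d8, with 105 CPM (99.4 to 111). Cluster 10, with T and Shh, had 76.8 CPM (71.7 to 82.3) and cluster 2, with Lefty1 and Fgf8, 54.6 CPM (51.9 to 57.5). High Mycn was thus also found in d8 cells with low Pou5f1, since clusters 9 and 10 had 36.3 and 27.1 CPM of Pou5f1. The lowest level was 9.63 CPM (8.78 to 10.6) in the fibroblast-like cluster 1 with Lox and Ccl2, which the intervals of clusters 8 and 14 overlapped.

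Mycl was highest in cluster 9, with 30.4 CPM (27.3 to 33.7), then in the neural-like cluster 13 with 22.7 CPM (16.4 to 30.7) and the primed home cluster 12 with 18.9 CPM (16.3 to 21.8). The interval of cluster 13 overlapped both others. The remaining clusters had 2.19 to 10.4 CPM. Mycn per Myc read ran from 0.192 (0.174 to 0.213) in cluster 1 to 5.43 (4.87 to 6.06) in cluster 5, with 2.43 (2.19 to 2.70) in cluster 9. It was also above 1 in clusters 2 (1.21), 10 (1.42) and 16 (2.64, 1.40 to 5.29), none of them Pou5f1-high. Cluster 13 had 1.29 with an interval that held 1 (0.915 to 1.83). Max had 27.3 to 56.7 CPM and Mga 52.5 to 137 CPM over the clusters, with the lowest Mga in the macrophage-like cluster and the highest in cluster 9.

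Cells of different tags in 1 cluster allowed the members to be compared within a cell type. In cluster 9, Mycn was 111 CPM (104 to 118) in 694 d8 cells and 103 CPM (85.3 to 124) in 73 primed-tagged cells, with overlapping intervals, and 32.6 CPM (21.8 to 46.8) in 65 d16 cells. In cluster 2 it was 60.1 CPM (56.7 to 63.7) in d8 and 37.5 CPM (32.7 to 42.8) in primed-tagged cells. In cluster 7, the 85 d16-tagged cells had 78.3 CPM (67.1 to 90.8) of Mycn against 66.0 CPM (62.7 to 69.5) in d16+10p cells, which overlapped, and 43.8 CPM (35.6 to 53.4) of Myc against 16.9 CPM (15.3 to 18.7), which did not. In cluster 5, 53 primed-tagged cells had 61.4 CPM (44.8 to 82.2) of Mycn, below the 109 CPM of the d16 cells. Tags were assigned by the authors from tag counts. Wrongly assigned cells were not tested for, in these small groups or in the whole populations.

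**Figure D4:**
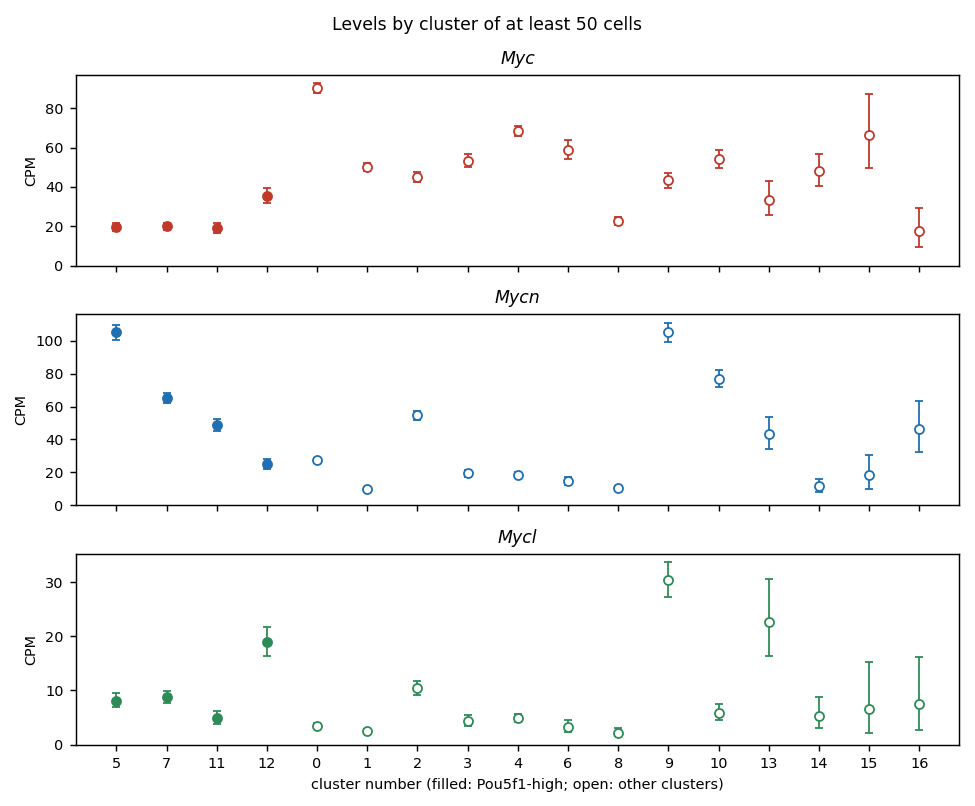
Summed level in CPM (linear axes from 0) of Myc, Mycn and Mycl in the 17 clusters, with 95% Poisson intervals; filled points are the Pou5f1-high clusters 5, 7, 11 and 12, open points the others. Myc is below 20 CPM in the naive-like clusters 5, 7 and 11 and in cluster 16 and peaks in cluster 0 at 90.2 CPM, Mycn is at 105 CPM in both clusters 5 and 9, and Mycl peaks in cluster 9 at 30.4 CPM.

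The genes whose log2 levels were most like those of a member over the 17 clusters were searched among 11751 genes, and the Pearson r is given as a description, since clusters share 1 library. For Myc they were Sorbs3 (r = 0.92), 2900026A02Rik, Tceal9, Lzts2 and Samd4 (0.89). For Mycn they were Cep78 (0.91), Cstf2, Zfp141, Sin3a and Jarid2 (0.86). For Mycl they were Dab1 (0.92), Socs2, Eomes, Cacna2d2 and Ivns1abp (0.79). Between members, r was -0.39 for Myc and Mycn, 0.63 for Mycn and Mycl, and -0.19 for Myc and Mycl.

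The wider network was described by lists of 87 genes, by their counts past 2-fold and their medians. The repressors that compete for MAX, Mxd1, Mxi1, Mxd3, Mxd4 and Mnt, had no call in d16 Dppa5a-high against primed cells, and their median log2 ratio of 0.01 was near that of all genes (-0.05). Against Dppa5a-low cells 2 of 5 were lower, where 17.1% of all genes were. Mxd4 had 31.1 against 73.6 CPM and Mxi1 32.2 against 69.4 CPM, and all 5 had ratios below 0. In the MLX branch, which binds E-boxes with MLX in place of MAX, Mlxipl, the glucose-responsive ChREBP, had 2.3 CPM in primed against 8.76 CPM in naive cells (log2 ratio -1.57, where 9.14% of genes were called), 3.03 CPM in d16 Dppa5a-high and 4.12 CPM in d16+10p cells. Against naive cells Mlxipl passed the filter only through the naive cells, which fixes its direction. Mlx and Mlxip were within 2-fold in all 8 comparisons.

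Of 12 PRC1.6 partners of MGA and MAX, 1 was called in d16 Dppa5a-high against primed cells, where 12.2% of all genes were. It was Wdr5, which binds methylated histone H3, with 124 against 52.2 CPM (log2 ratio 1.23), and it had 99.1 CPM in naive and 113 CPM in d16+10p cells. Against Dppa5a-low cells 4 of 12 were higher, Wdr5, Pcgf6, Hdac1 and Tfdp1, where 11.3% of all genes were, with a median of 0.61. Pcgf6, the subunit that defines the complex, was 70.7 CPM in d16 Dppa5a-high against 53.0 CPM in primed cells, and E2f6, a DNA-binding subunit of the complex, 19.8 against 30.5 CPM. The E2f6 level was 35.3 CPM in the primed home cluster against 16.5 CPM in the naive one, a log2 ratio of 1.05, and Yaf2 was called there as well (1.09). These calls stand against 13.9% of all genes between those home clusters. Over the whole primed and naive populations both were within 2-fold, at 0.63 for E2f6 and 0.89 for Yaf2. The 10 cofactors and turnover factors had 1 call in the 8 comparisons, Aurka, which is known to stabilise MYCN, at 88.1 CPM in d16 Dppa5a-high against 38.2 CPM in Dppa5a-low cells, where 11.3% of all genes were called higher. Fbxw7, which marks MYC proteins for destruction, was 71.4 CPM in d16 Dppa5a-high, 42.9 CPM in naive and 56.5 CPM in primed cells. In the home clusters it was 74.2 CPM in d16, 39.9 CPM in naive and 35.6 CPM in primed cells, so the order of naive and primed turned and d16 against primed was past 2-fold (1.04), where 14.6% of genes were.

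MYC target genes were on balance lower at d8 than in primed cells. Of the 42 listed, 41 passed the filter. In d8 against primed cells 6 were lower, where 3.22% of all genes were, and 0 higher, with a median of -0.54 against -0.03 over all genes, although Myc itself was 0.41 higher there. Those with the largest ratios were Mcm5 (43.3 against 115 CPM) and Mcm4 (43.5 against 93.8 CPM) of the replicative helicase, Shmt2 of one-carbon metabolism (27.6 against 67.6 CPM) and Ppat of purine synthesis (25.1 against 54.5 CPM). In d16 Dppa5a-high against primed cells, where 12.2% of all genes were called, only Ccnd2, cyclin D2, was called among the targets. It was lower (91.4 against 286 CPM), and the median of the list was 0.17. That median changed sign in the home clusters, where it was -0.21 and Ccnd2 again was the only call, against 14.6% of all genes.

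Within d16, 26 of the targets were higher in Dppa5a-high than in Dppa5a-low cells and 1 was lower. Their median ratio was 1.14, against -0.04 over all genes, of which 11.3% were called higher and 17.1% lower. Dkc1 of the telomerase and snoRNA complex had 320 against 73.2 CPM, Mcm5 146 against 36.0 CPM and Umps of pyrimidine synthesis 43.4 against 10.9 CPM. In the same comparison Mycn was higher and Myc lower. Between d16+10p and naive cells no target was called, where 1.76% of all genes were, with a median of 0.07. Ldha, lactate dehydrogenase A, differed most among the naive-like populations. It had 1082 CPM in d16 Dppa5a-high, 416 CPM in naive and 244 CPM in d16+10p cells.

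Germ cell genes that MGA and MAX help to repress were high in d16 Dppa5a-high cells, in which Max and Mga were at or above their naive levels. A link between these genes and the levels of Max and Mga was not tested. Against primed cells 13 of the 15 listed passed the filter, 9 of them only through the Dppa5a-high cells. That fixes their direction, so no count or median of the list is read. Dazl, an RNA-binding protein of germ cells, had 900.2 CPM, against 150.1 CPM in naive, 52.1 CPM in primed, 23.6 CPM in d8, 52.7 CPM in d16 Dppa5a-low and 222 CPM in d16+10p cells. Stra8, which starts meiosis, had 331 CPM against 27.9 CPM in naive, 27.3 CPM in primed and 137 CPM in d16+10p cells. Smc1b, a meiotic cohesin, had 93.2 CPM against 9.28, 5.53 and 15.5 CPM in the same order. Hormad1, whose E-box is printed above, had 168 CPM against 32.1, 11.3 and 45.0 CPM. In d16+10p against naive cells Stra8 and Ddx4 were past 2-fold higher, where 0.923% of genes were. Meioc was too (7.55 against 1.28 CPM), but it passed the filter only through the d16+10p cells. Tex101 and Tdrd1 were under 5 CPM in all 6 groups. In the home clusters Dazl had 969.5 CPM in d16 and 25.2 CPM in primed cells, and Stra8 389 and 13.4 CPM.

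**Figure D5:**
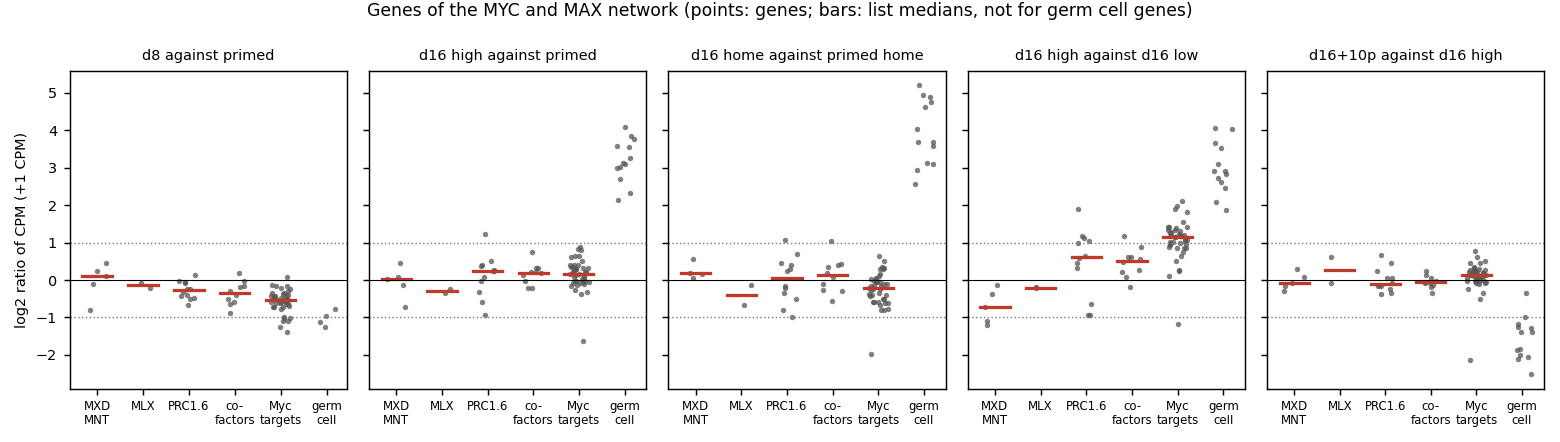
Log2 ratio of CPM (pseudocount 1 CPM) for genes of the MYC and MAX network in 5 comparisons; each point is a gene that passed the filter, red bars are medians of the lists, dotted lines mark 2-fold, and d16 high and low are the Dppa5a-high and Dppa5a-low cells. MYC targets have a median of -0.54 in d8 against primed and 1.14 in d16 high against d16 low. Germ cell genes carry no bar, as many passed the filter only through the d16 cells.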

How the data were processed

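Single-cell RNA-seq (BD Rhapsody capture, TAS-Seq amplification) covered 5 tagged populations in 1 pooled cDNA library. The tag library was not analysed here. The deposited values are raw counts of reads per gene symbol and cell. The authors trimmed reads with cutadapt 2.10, mapped them with Bowtie2 2.3.4.1 to Ensembl cDNA and ncRNA of GRCm38.p6, kept barcodes above the knee, assigned tags and removed likely doublets. Seurat 2.3.4 is also named in the submitters' processing notes. No collapsing of molecules is described, so amplified reads are not independent. No doublet caller was run and no cell was filtered here. Cells had 3179 to 111822 reads, and 0 barcodes occurred under more than 1 tag.

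Here, counts were summed per population in Python 3.11.15 (numpy 2.4.6, scipy 1.17.1) and scaled to CPM. Clusters were built with Seurat 5.3.0 (R 4.3.3) at the settings of the study, leaving the members and listed network genes out of the variable genes. A cluster was Pou5f1-high at 25% or more of the highest cluster's level with Pou5f1 reads in at least 75% of its cells. It was named from at least 3 markers of a type at least 4-fold above the other cells, and otherwise left unnamed, as was cluster 9, whose leading genes went against the primed markers it met. Differences from the study's clusters can come from this rebuilding. TMM factors came from edgeR 4.0.16. Ratios and intervals were run on simulated Poisson sums, the model the intervals assume. That run could not show how they behave for amplified reads that cluster in cells.

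The members and lists were chosen with earlier results of these data known. Members are named throughout. Of each list, the text names up to 4 genes with the largest ratio in the comparison described, and beyond this rule Pcgf6, Fbxw7, Hormad1, Ldha and the genes whose sites are printed, which were chosen after their values were seen. Alternatives covered the split, cell filter, total, mean over cells, pseudocount, expression filter and thinning depth. Gene positions are from GENCODE M21.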

Additional observations from a re-analysis of the deposited data

How the results depend on the processing

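Of 320 values of the 40 member ratios under other settings, 250 stayed within the counting interval of the value given and 0 of the 7 calls changed sign. A sign changed in 9 values, all of ratios of at most 0.24 in size. Mycn stayed past 2-fold in d16 Dppa5a-high cells against primed (log2 ratio 1.43 to 2.06), Dppa5a-low (1.83 to 2.37) and naive cells (1.05 to 1.27) under each setting run. The number of members past 2-fold moved in 14 of 80 alternatives. With a pseudocount of 10 CPM it was 0 in place of 1 for primed against naive, d8 against primed and d16+10p against primed, and 1 in place of 2 within d16. With the mean over cells of CPM it was 0 in the first 3 of these, and it was 0 in them as well with a minimum of 50 CPM, which leaves out Mycl by construction and Myc in d16+10p against primed. With only Pou5f1-high clusters it was 2 in place of 1 for d16 Dppa5a-high against primed, where Mycl joined Mycn. For d16+10p against primed it stayed 1 but was Mycn in place of Myc. With home clusters, a setting chosen after seeing the data, it was 2 in that comparison and 2 for d16+10p against primed, where Mycn joined Myc. TMM factors also gave 2 there. Apart from the settings whose construction shows it, the cause was not tested. Of 60 shares of cells, 59 moved beyond their interval when cells were thinned to 3000 reads or not thinned, so shares hold only at their stated depth. No paired analysis was possible because the labels give 1 cDNA library without replicate numbers. Mycl rests on 94 to 994 reads a group, and none of the differences has a replicate.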
